A study of Mus musculus with 8 samples.

Results

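The genes described here are 10 regulators of ventricular wall compaction and compact wall growth: Prdm16, Mib1, Fkbp1a, Ino80, Mycn, Daam1, Jarid2, Plk2, Dtna and Rxra. They were listed by name, as genes known to set compaction or compact wall growth, by a rule that used no measured value, although earlier results of these data were known when the list was made. All 10 were among the 53465 genes of the table, and all 10 passed the filter on low counts that left 15388 genes for testing. RNA from mouse heart ventricles at embryonic day 15.5 was compared between 4 WT libraries and 4 libraries labelled Nrg-1flox;Cdh5-CreERT2. The second label names a floxed allele of Nrg1, a secreted growth factor that the endocardium sends to cardiomyocytes, and a Cre recombinase that tamoxifen activates under the promoter of the endothelial gene Cdh5. The libraries with that label are called labelled-mutant libraries here. Whether WT embryos carried a floxed allele or Cre, and when or to whom tamoxifen was given, is not given in the sources used here.

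In the fetal ventricle, sponge-like trabeculae line the lumen while an outer compact layer thickens by cardiomyocyte proliferation. When the compact layer stays thin and the trabeculae persist, the wall is called noncompacted, and inherited cardiomyopathies of this form are known in humans. The 10 genes encode proteins of different kinds. Prdm16, Mycn, Rxra, Jarid2 and Ino80 act on transcription and chromatin, Mib1 and Plk2 on signalling, and Daam1, Dtna and Fkbp1a on the cytoskeleton, the membrane and calcium release.

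Library totals ranged from 16761763 to 24144272 expected counts, and TMM scaling factors ranged from 0.988 to 1.015. The targeted gene was not lower in the labelled-mutant libraries. Values are given in the order of libraries 1 to 4 throughout. Nrg1 stood at 5.46, 4.64, 4.08 and 5.32 CPM (counts scaled to the effective library size) in WT libraries 1 to 4 and at 6.82, 6.33, 6.16 and 5.36 CPM in labelled-mutant libraries 1 to 4. It had a log2 fold change of 0.34 (SE 0.120, edgeR adjusted p = 0.311), so directions follow the labels rather than a measured loss of Nrg1. Gene-level counts also hold exons outside a floxed part and transcripts of every cell type. Each library is described as 1 ventricle, yet 7 of the 8 held more than 20 counts both of Xist, which female cells transcribe, and of 4 Y-linked genes, which male cells transcribe. The exception was WT library 4. Xist stood at 134, 206, 140 and 0.176 CPM across the WT libraries, against 327, 282, 263 and 103 CPM across those labelled mutant. Labelled-mutant libraries 1, 2 and 3 were thus above every WT library. The Y-linked sum was 69.3 to 171 (WT) against 42.9 to 120 CPM (labelled mutant). The part of sex in the differences between groups was not tested. Markers of cardiomyocytes were abundant, with a sum over 10 genes of 46021 to 50929 (WT) against 44951 to 51347 CPM (labelled mutant), while 8 hepatocyte genes summed to at most 5.36 CPM in any library.

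No regulator of the 10 passed a false discovery rate (FDR) of 0.05 in edgeR's quasi-likelihood test across all genes, where 0.526% of the tested genes did (0.312% higher and 0.214% lower in labelled-mutant libraries). At an unadjusted p below 0.05 there was 1 member, Mycn, against 10.5% of all tested genes. DESeq2 likewise called 0 of the 10, where it called 1.29% of the tested genes, and its adjusted p for Mycn was 0.0972. Of the members, 6 had a fold change above 0 and 4 below 0 on the log2 scale. Their median log2 fold change was 0.014, against -0.0012 over all tested genes, and their median absolute log2 fold change was 0.032, against 0.059. The groups overlapped for 9 of the 10, and the exception was again Mycn, where 6.05% of all tested genes had groups that did not overlap. For 7 members, Mib1, Fkbp1a, Ino80, Daam1, Jarid2, Plk2 and Rxra, the 95% confidence interval of the change lay within 10% of the WT level in either direction. These were precise measurements, as standard errors of the log2 fold changes ran from 0.0298 to 0.0602 and the members' median biological coefficient of variation in the fit was 4.12%, against 5.49% over all tested genes. The comparisons of absolute change and of variation set the members, at the 55.1th to 97.6th percentile of level, beside genes of every level. No comparison with genes of like level was made. Nothing in the labels says that the libraries of a group came from separate litters, so the p-values measure the spread between these libraries, which may in part be technical.

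**Figure D1:**
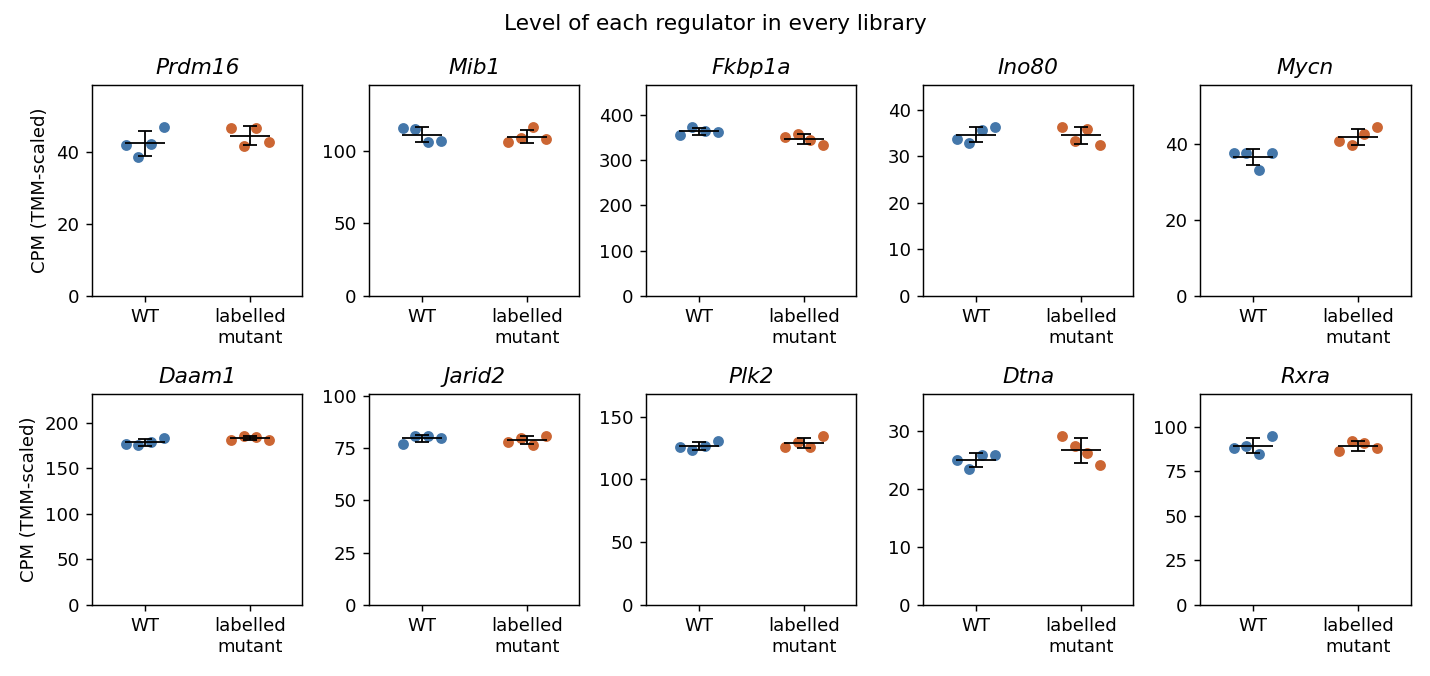
Level of each of the 10 regulators in every library, in CPM scaled with TMM factors, on linear axes that start at 0. Points are libraries 1 to 4 of each group from left to right, and the bars give the mean and SD (n = 4). The WT and labelled-mutant points overlap in 9 panels, while for Mycn the labelled-mutant libraries (39.6 to 44.3 CPM) all lie above the WT libraries (33.2 to 37.6 CPM).

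Mycn encodes N-Myc, a transcription factor that drives cardiomyocyte proliferation in the compact layer. The gene (ENSMUSG00000037169) lies on GRCm38 chromosome 12, 12936093 to 12941914, on the minus strand. It was at 37.6, 37.6, 33.2 and 37.6 CPM across the WT libraries, against 40.7, 39.6, 42.6 and 44.3 CPM across those labelled mutant. Every labelled-mutant library was above every WT library, and 3 of the 4 WT libraries were nearly equal, with library 3 lower. The means were 36.5 ± 2.22 and 41.8 ± 2.08 CPM (SD, n = 4), and the log2 fold change was 0.20 (SE 0.0510), or 14.5% with a 95% interval of 6.04% to 23.6%. This did not pass over all genes (unadjusted p = 0.00219 and adjusted p = 0.134, edgeR's quasi-likelihood test). Without WT library 3 the log2 fold change was 0.15 (adjusted p = 0.271). It passed where low genes were not filtered (adjusted p = 0.0292) and in edgeR's likelihood ratio test (adjusted p = 0.0437), where 1.15% and 1.57% of the genes tested were called. Over the 21 alternatives its log2 fold change ran from 0.15 to 0.23 and its adjusted p from 0.0292 to 0.336.

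Mycn's paralog Myc, which shares its DNA-binding partner Max, was at 23.8 ± 0.463 (WT) against 23.9 ± 1.65 CPM (labelled mutant, each SD with n = 4). Its log2 fold change was 0.01 (SE 0.0539, adjusted p = 0.982), with a 95% interval of -0.11 to 0.12. Per kilobase of exons, the level of Mycn was 1.26 ± 0.0560 times that of Myc in WT and 1.45 ± 0.158 times in labelled-mutant libraries (SD, n = 4), and 1.18 to 1.64 times over the 8 libraries. Of 10 tested genes of the MYC network besides Mycn (the MYC family, Max and the MXD and MLX proteins that compete for or resemble it), 0 passed. Against 10.5% of all tested genes, 0 of the 10 reached an unadjusted p below 0.05, and their median log2 fold change was -0.01. Max itself, with the smallest p of them, was at 29.1, 34.6, 34.6 and 35.3 CPM across the WT libraries, against 31.8, 31.1, 31.7 and 32.4 CPM across those labelled mutant (log2 fold change -0.08, adjusted p = 0.704).

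The sequence before the start site is shown for Mycn, as the member with the largest difference, and for Plk2, since these alone among the members held a searched motif. The windows come from RefSeq on GRCm38.p6, where 8 of the 10 members had an entry (11 windows of 250 bases before and 50 after a start). Searched on both strands were CACGTG, the E-box bound by MYC and MAX, GTGGGAA, bound by the Notch effector RBPJ, and TTTNGCGC, bound by E2F factors of the cell cycle. They occurred in 7.15%, 6.38% and 1.38% of all 32851 windows. Among the members, the E2F motif was found for Mycn only, the RBPJ motif for Plk2 only, and the E-box for 0 of 8. The 172 bases of Mycn that lie before both the RefSeq start and the annotated gene (chr12:12941915-12942086, minus strand) hold 3 E2F matches, of which the first and second overlap on opposite strands. The 250 bases before the start of Plk2 (chr13:110394794-110395043, plus strand) hold 1 RBPJ match, on the minus strand. Capitals mark the matches, which are letters found in these windows and not measured binding.
Mycn: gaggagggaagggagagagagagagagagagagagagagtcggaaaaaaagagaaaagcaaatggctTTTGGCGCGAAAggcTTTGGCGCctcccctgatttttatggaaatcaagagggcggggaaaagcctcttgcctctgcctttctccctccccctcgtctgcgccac
Plk2: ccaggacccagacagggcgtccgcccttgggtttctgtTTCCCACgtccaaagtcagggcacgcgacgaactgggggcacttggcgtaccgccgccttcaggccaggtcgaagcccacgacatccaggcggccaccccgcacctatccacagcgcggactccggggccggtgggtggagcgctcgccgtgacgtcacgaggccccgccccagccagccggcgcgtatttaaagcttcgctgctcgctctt

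Prdm16 encodes a zinc finger transcription factor of compact cardiomyocytes, and its loss is a known cause of noncompaction. The gene (ENSMUSG00000039410, chromosome 4, 154316125 to 154636873, minus strand) was at 41.9, 38.8, 42.2 and 47.0 CPM across the WT libraries. The labelled-mutant values were 46.9, 41.9, 46.8 and 42.8 CPM. The highest value of all was that of WT library 4, so the groups overlapped, and the log2 fold change was 0.07 (SE 0.0582, adjusted p = 0.749). Its 95% interval ran from a change of -3.85% to one of 14.5%. Over its 21 alternatives the log2 fold change ran from 0.03 without WT library 2 to 0.14 under a covariate for the Y-linked level, and none passed (adjusted p = 0.515 to 0.950). Of 8 tested genes for its close relative Mecom and for corepressors known to act with this family, 0 passed. Mecom was at 37.7 ± 0.922 (WT) against 35.3 ± 1.90 CPM (labelled mutant, each SD with n = 4), which made a log2 fold change of -0.10 (SE 0.0441, adjusted p = 0.468). An antisense gene, B230104I21Rik, covers 1.17% of the exonic bases of Prdm16 and held at most 2.21 counts in a library, against 727 to 1070 for Prdm16.

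Rxra encodes the retinoid X receptor alpha, the partner of retinoic acid receptors, without which the compact wall stays thin. The gene (ENSMUSG00000015846, chromosome 2, 27676440 to 27762957, plus strand) was at 88.2, 89.3, 84.9 and 94.8 CPM across the WT libraries, against 86.1, 92.2, 90.8 and 87.9 CPM across those labelled mutant. Both means were 89.3 CPM, and the labelled-mutant values lay wholly within the WT range. Its estimated log2 change was 0.00013 (SE 0.0373, adjusted p = 0.999), with a 95% interval of -0.08 to 0.08, and its sign turned in 9 of 21 alternatives. Per kilobase, Rxra was 1.55 ± 0.0871 times as high as Rxrb in WT and 1.53 ± 0.0244 times in labelled-mutant libraries (SD, n = 4). It was 37.3 to 69.8 times as high as Rxrg, which held only 11 to 22 counts per library. Rxrb had a log2 fold change of 0.01 (SE 0.0354, adjusted p = 0.946) and Rxrg of -0.19 (SE 0.267, adjusted p = 0.878), so the interval of Rxrg, from -0.77 to 0.39, was wide. Of 15 tested genes of retinoid signalling besides Rxra (receptors, enzymes that make or degrade retinoic acid, and binding proteins), 0 passed. An unadjusted p below 0.05 was reached by 0 of the 15, against 10.5% of all tested genes. The smallest p of the 15 was that of Crabp2, which held 6 to 15 counts per library (log2 fold change -0.62, SE 0.324, adjusted p = 0.546).

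Jarid2 and Ino80 act on chromatin. Jarid2 is an accessory subunit of Polycomb repressive complex PRC2, and Ino80 is the ATPase of a nucleosome remodelling complex. Jarid2 (ENSMUSG00000038518, chromosome 13, 44729474 to 44921643, plus strand) was at 77.1, 80.9, 81.0 and 80.0 CPM across the WT libraries, against 78.1, 79.9, 76.8 and 80.9 CPM across those labelled mutant. These groups covered nearly the same range. The log2 fold change was -0.02 (SE 0.0305, adjusted p = 0.922), with an interval of -5.47% to 3.58%. Of 10 tested subunits of PRC2 and its accessory proteins besides Jarid2, 0 passed, 9 had a fold change above 0, and the median on the log2 scale was 0.03. Ezh2, the main methyltransferase of the complex and the gene of this list with the smallest p, was at 66.9 ± 0.547 (WT) against 69.1 ± 2.51 CPM (labelled mutant, each SD with n = 4), which made a log2 fold change of 0.05 (SE 0.0322, adjusted p = 0.662).

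Ino80 (ENSMUSG00000034154, chromosome 2, 119373042 to 119477687, minus strand) was at 33.6, 32.9, 35.7 and 36.2 CPM in WT libraries. The labelled-mutant values were 36.2, 33.3, 35.9 and 32.4 CPM. Each group had a higher and a lower pair of libraries, at about the same levels in both groups. It had a log2 fold change of -0.01 (SE 0.0494, adjusted p = 0.984), with an interval of -7.57% to 7.22%, and its sign turned in 6 of 21 alternatives. Among 14 other subunits of the INO80 complex, all tested, 0 passed. An unadjusted p below 0.05 was reached by 1 gene of the 14, against 10.5% of all tested genes. That gene was Actr8, an actin-related subunit, at 35.6 ± 1.33 (WT) against 33.1 ± 1.90 CPM (labelled mutant, each SD with n = 4), which made a log2 fold change of -0.11 (SE 0.0483, adjusted p = 0.467).

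Mib1 encodes an E3 ubiquitin ligase that cells sending a Notch signal need to activate the ligands Delta and Jagged. The gene (ENSMUSG00000024294, chromosome 18, 10725548 to 10818704, plus strand) was at 116, 115, 106 and 107 CPM across the WT libraries, against 106, 109, 116 and 108 CPM across those labelled mutant. In both groups the values ran from 106 to 116 CPM. Its expected counts were not whole in any of the 8 libraries, as happens where reads are divided between genes. Its estimated log2 change was -0.01 (SE 0.0404, adjusted p = 0.950), with an interval of -6.79% to 5.24%. Per kilobase, Mib1 was 1.65 ± 0.0707 times as high as Mib2 in WT and 1.60 ± 0.164 times in labelled-mutant libraries (SD, n = 4). Mib2 itself had a log2 fold change of 0.03 (SE 0.0501, adjusted p = 0.880).

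Of 21 Notch pathway genes besides Mib1 (ligands, receptors, ligases, coactivators, Fringe proteins and targets), all tested, 0 passed in either direction in edgeR's quasi-likelihood test. Among them, 9 reached an unadjusted p below 0.05, where 10.5% of all tested genes did, and 5 had groups that did not overlap, where 6.05% of all tested genes did not. The median log2 fold change was -0.06, with 15 of 21 below 0. This list was made with earlier results of these libraries known, so its counts and direction are no independent evidence. The smallest p was that of Heyl, a Notch target that encodes a transcriptional repressor. It was at 27.4, 25.2, 27.5 and 30.0 CPM across the WT libraries, against 21.9, 22.4, 23.5 and 23.7 CPM across those labelled mutant. The groups did not overlap, yet its log2 fold change of -0.27 (SE 0.0570) did not pass (adjusted p = 0.0598). It passed in 3 of its 21 alternatives, with adjusted p from 0.0057 to 0.354. Hey2, another gene of the same family and a marker of the compact layer, was at 156 ± 5.52 (WT) against 166 ± 4.15 CPM (labelled mutant, each SD with n = 4). Its log2 fold change was 0.09 (SE 0.0348, adjusted p = 0.356).

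Beside these values, 10 of 12 endothelial markers had a fold change below 0, with a median of -0.07 on the log2 scale and 0 of them past the threshold. Of the 12, 6 reached an unadjusted p below 0.05 and 4 had groups that did not overlap, against 10.5% and 6.05% of all tested genes. Their summed level was 1585 to 1645 (WT) against 1479 to 1608 CPM (labelled mutant). Several Notch genes, and Plk2 and Prdm16 in part, are expressed by endothelial cells, and in bulk tissue fewer cells of a type and less RNA per cell cannot be told apart. The part of cell composition in these values was not tested.

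Plk2 encodes Polo-like kinase 2, a serine/threonine kinase. The gene (ENSMUSG00000021701, chromosome 13, 110395046 to 110400844, plus strand) was at 126, 123, 127 and 130 CPM across the WT libraries, against 126, 130, 126 and 135 CPM across those labelled mutant. Library 4 had the highest value in both groups, and the groups overlapped. The log2 fold change was 0.03 (SE 0.0334, adjusted p = 0.850), with an interval of -3.06% to 7.15%. Of the other Polo-like kinases, 3 of 4 were tested and 0 passed. Plk4, the kinase of centriole duplication, had the smallest p, with 47.0 ± 2.44 (WT) against 50.5 ± 3.32 CPM (labelled mutant, each SD with n = 4), which made a log2 fold change of 0.10 (SE 0.0512, adjusted p = 0.521).

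Daam1 is a formin, a protein that assembles actin filaments downstream of noncanonical Wnt signalling. The gene (ENSMUSG00000034574, chromosome 12, 71831078 to 71992333, plus strand) had the smallest coefficient of variation within each group among the 10. It was at 176, 175, 179 and 183 CPM across the WT libraries, against 181, 185, 184 and 181 CPM across those labelled mutant, with coefficients of variation of 1.93% and 1.34%. Only WT library 4 reached into the labelled-mutant range, and the log2 fold change was 0.04 (SE 0.0298, adjusted p = 0.732), with an interval of -1.90% to 7.29%. Per kilobase, Daam1 was 5.83 ± 0.413 times as high as its paralog Daam2 in WT and 5.82 ± 0.295 times in labelled-mutant libraries (SD, n = 4). Daam2 had a log2 fold change of 0.03 (SE 0.0577, adjusted p = 0.905). Of 21 tested formins and noncanonical Wnt genes besides Daam1, 0 passed. An unadjusted p below 0.05 was reached by 2 of the 21, against 10.5% of all tested genes. Fmnl3, a formin, had the smallest p, with 53.8 ± 1.87 (WT) against 50.1 ± 0.420 CPM (labelled mutant, each SD with n = 4), which made a log2 fold change of -0.10 (SE 0.0341, adjusted p = 0.286).

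Dtna encodes alpha-dystrobrevin, a member of the dystrophin complex that links the cytoskeleton to the membrane. The gene (ENSMUSG00000024302, chromosome 18, 23415135 to 23659715, plus strand) was at 25.0, 23.4, 25.8 and 25.9 CPM across the WT libraries, against 29.2, 27.4, 26.2 and 24.1 CPM across those labelled mutant. Of the labelled-mutant libraries, 3 were above every WT library, and library 4 was below 3 of the 4. It had a log2 fold change of 0.10 (SE 0.0602, adjusted p = 0.624), with the widest standard error of the 10 and an interval of -2.27% to 17.1%. It was 0.06 without labelled-mutant library 1 and 0.14 without labelled-mutant library 4. Its paralog Dtnb lay on the other side of 0. This gene was at 13.04, 11.3, 11.3 and 11.6 CPM across the WT libraries, against 10.3, 10.7, 10.9 and 11.2 CPM across those labelled mutant, so the groups did not overlap, with a log2 fold change of -0.13 (SE 0.0739, adjusted p = 0.581) that was -0.08 without WT library 1. Per kilobase, Dtna was 1.20 ± 0.0956 times as high as Dtnb in WT and 1.41 ± 0.166 times in labelled-mutant libraries (SD, n = 4). Of 13 tested genes of the dystrophin complex besides Dtna, 0 passed. An unadjusted p below 0.05 was reached by 3 of the 13, against 10.5% of all tested genes. Sgca, the sarcoglycan of the complex with the smallest p, was at 19.6 ± 0.678 (WT) against 17.4 ± 0.762 CPM (labelled mutant, each SD with n = 4), which made a log2 fold change of -0.17 (SE 0.0554, adjusted p = 0.249). The antisense gene Gm47898 covers 0.532% of the exonic bases of Dtna and held at most 1.03 counts.

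Fkbp1a encodes FKBP12, a small prolyl isomerase that binds ryanodine receptors, the calcium release channels of the sarcoplasmic reticulum. The gene (ENSMUSG00000032966, chromosome 2, 151542483 to 151561692, plus strand) was at 356, 373, 365 and 362 CPM across the WT libraries, against 352, 359, 344 and 335 CPM across those labelled mutant. Of the labelled-mutant libraries, 3 were below every WT library, and library 2 lay between WT libraries 1 and 4. Its estimated log2 change was -0.07 (SE 0.0321, adjusted p = 0.508), the second smallest p of the 10 (unadjusted p = 0.0610 by edgeR), with an interval of -8.96% to 0.246%. Its value under the Y-linked covariate was -0.10, and over its 21 alternatives the adjusted p was 0.359 to 0.728. Fkbp1b, the paralog that also binds ryanodine receptors, held only 42 to 88 counts per library, and its log2 fold change was 0.08 (SE 0.158, adjusted p = 0.911). Per kilobase, Fkbp1a was 22.2 to 35.8 times as high as Fkbp1b. Of 10 tested genes of this complex besides Fkbp1a, 0 passed. Jph2, which holds the sarcoplasmic reticulum near the cell membrane, came nearest, at 351 ± 14.6 (WT) against 397 ± 13.9 CPM (labelled mutant, each SD with n = 4). Its groups did not overlap, and its log2 fold change was 0.18 (SE 0.0378, adjusted p = 0.0597). It passed in 6 of its 21 alternatives, with adjusted p from 0.000275 to 0.205.

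**Figure D2:**
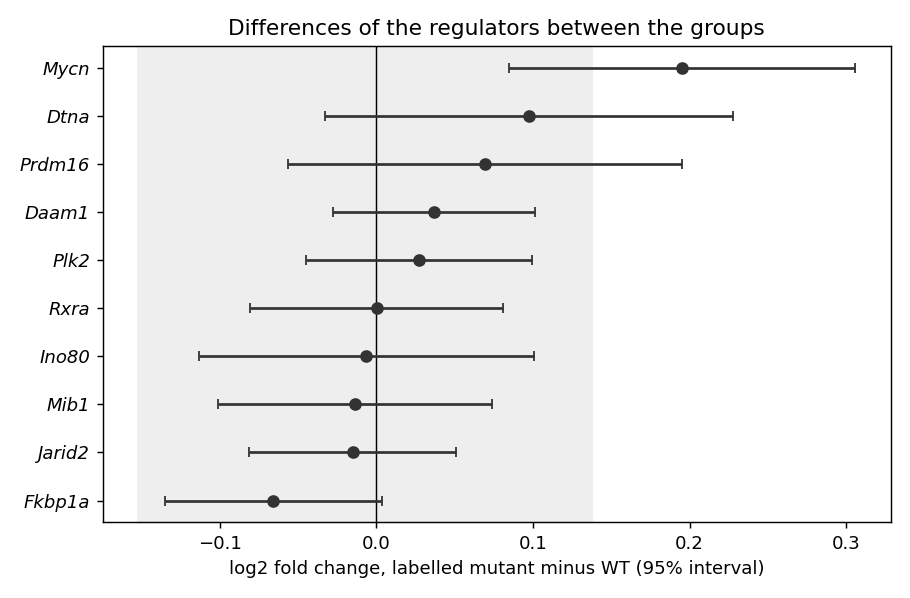
Log2 fold change of each regulator, labelled mutant minus WT, as points with 95% confidence intervals from edgeR's quasi-likelihood fit (4 libraries in each group). The grey band marks changes within 10% of the WT level. Intervals of 7 regulators lie wholly within the band, and that of Mycn (0.08 to 0.31) alone does not include 0, though Mycn did not pass after adjustment over all genes.

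Compared per kilobase of exons, the levels of the members spanned a 60.4-fold range and stood in the same order in each of the 8 libraries. Fkbp1a came first at 92.2 ± 3.14 CPM per kilobase (SD, n = 8), followed by Plk2 at 28.4 ± 0.818, Daam1 at 22.3 ± 0.457 and Rxra at 16.3 ± 0.595 CPM per kilobase. The ranges of these over the 8 libraries did not meet. Mycn at 11.9 ± 1.06 and Mib1 at 10.1 ± 0.416 CPM per kilobase had overlapping ranges, although Mycn was above Mib1 within each of the 8 libraries. Jarid2 followed at 8.17 ± 0.182 CPM per kilobase. Ino80 at 5.08 ± 0.240 and Prdm16 at 4.67 ± 0.324 CPM per kilobase again overlapped in range, and Dtna was lowest at 1.53 ± 0.109 CPM per kilobase (SD, n = 8). All members were above the median level of the tested genes, from the 55.1th percentile (Dtna) to the 97.6th (Fkbp1a) by mean log2 CPM. Exonic lengths count every annotated exon, so genes with many rare exons appear lower on this scale.

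**Figure D3:**
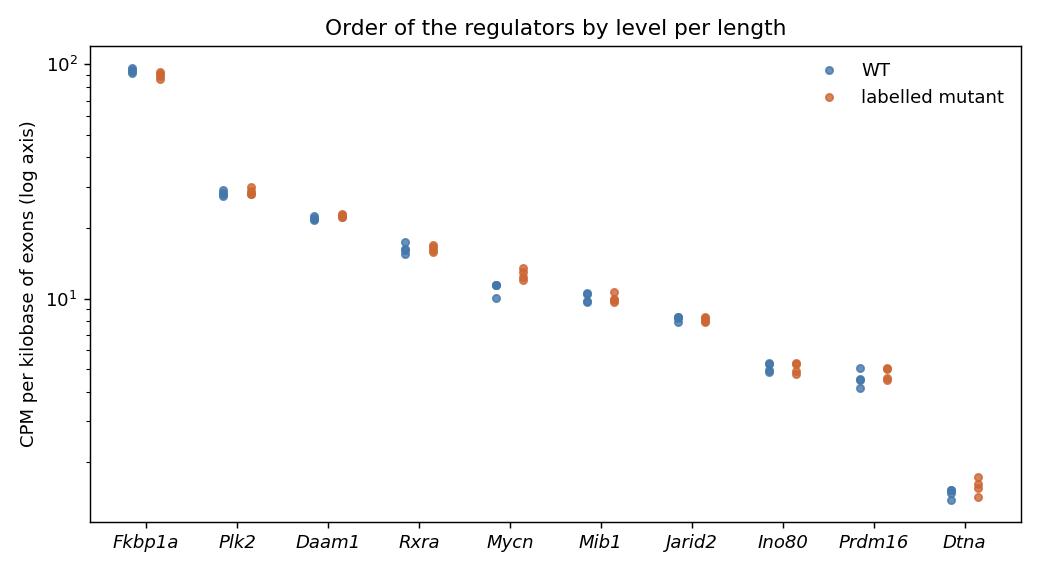
Level of the 10 regulators per kilobase of annotated exons, on a log axis, in each WT and labelled-mutant library (4 points a group), ordered by the mean over 8 libraries. Fkbp1a leads at 92.2 CPM per kilobase, Dtna is lowest at 1.53, and in this view the groups are close for every gene beside the distances between most genes.

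Other genes of compact wall growth were examined beside the members. Of 15 tested growth signals of the compact wall (Hey2, Tbx20, fibroblast and insulin-like growth factor genes, Vegfa, Pdgfa and D-type cyclins), 0 passed. An unadjusted p below 0.05 was reached by 1 of the 15, Hey2, against 10.5% of all tested genes. The list's median log2 fold change was 0.02. Tbx20, a T-box factor needed for wall growth, was at 414, 443, 417 and 429 CPM across the WT libraries, against 448, 431, 492 and 385 CPM across those labelled mutant, and both the highest and the lowest value were labelled-mutant ones. Its log2 fold change was 0.04 (SE 0.0584, adjusted p = 0.865).

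Among 16 other genes known from noncompaction cardiomyopathy, all tested, 1 was called higher and 0 lower. Over all tested genes, 0.312% were called higher and 0.214% lower. Nkx2-5, a homeobox factor of the cardiac lineage, was at 101, 96.4, 92.2 and 98.1 CPM across the WT libraries, against 111, 111, 116 and 112 CPM across those labelled mutant. Every labelled-mutant library was above every WT library, and the log2 fold change was 0.21 (SE 0.0334, adjusted p = 0.0194, edgeR's quasi-likelihood test). It was 0.11 after correction for GC content and length (adjusted p = 0.118), and it also did not pass with the Y-linked covariate (adjusted p = 0.0850) or without WT library 2 (0.0688), WT library 3 (0.0632) or labelled-mutant library 3 (0.0862). The list's median was 0.04 on the log2 scale. Of the 16, 4 reached an unadjusted p below 0.05, where 10.5% of all tested genes did. Besides Nkx2-5 these were Ldb3, Hcn4 and Tbx5, named after their values were seen. Ldb3 was higher by 0.09 (edgeR adjusted p = 0.446). Hcn4 was at -0.29 and Tbx5 at -0.16 (edgeR adjusted p = 0.0941 and 0.277).

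The 9 trabecular genes, all tested, lay on the other side. Of these, 2 were called lower and 0 higher, where 0.214% of all tested genes were called lower and 0.312% higher. The list's median log2 fold change was -0.28, with 8 of 9 below 0. An unadjusted p below 0.05 was reached by 7 of the 9, against 10.5% of all tested genes. The groups did not overlap for 3 of the 9, against 6.05% of all tested genes. Since the list was made with earlier results of these libraries known, its counts and direction are no independent evidence. Sema3a, a secreted guidance cue, was at 24.1, 25.1, 22.1 and 22.4 CPM across the WT libraries, against 14.9, 16.4, 14.5 and 19.4 CPM across those labelled mutant (log2 fold change -0.53, SE 0.0836, adjusted p = 0.0194). Etv1, a transcription factor of trabeculae and the conduction system, fell by 0.32 on the log2 scale (SE 0.0574, adjusted p = 0.0373). Neither passed with the Y-linked covariate (adjusted p = 0.117 for Sema3a and 0.136 for Etv1). Without any 1 of WT libraries 1 and 2 and labelled-mutant libraries 1, 2 and 3, Sema3a did not pass (adjusted p = 0.0519 to 0.0804). The same held for Etv1 without any 1 of these libraries or WT library 3 (0.0723 to 0.139). Bmp10, a trabecular growth factor that is known to rise in the noncompacted hearts of Fkbp1a mutants, was at 109 ± 13.3 (WT) against 75.0 ± 15.2 CPM (labelled mutant, each SD with n = 4). Its log2 fold change of -0.55 (SE 0.117) did not pass (adjusted p = 0.0606). It passed in 4 of 21 alternatives, with adjusted p up to 0.295. Without labelled-mutant library 4, the highest of its group, it was -0.68 (adjusted p = 0.00851), while leaving out any other library gave an adjusted p of 0.0881 to 0.186, and the Y-linked covariate gave -0.41. All 7 atrial markers were likewise below 0, with a median of -0.24, and their summed level was 1667 to 1880 (WT) against 1654 to 1800 CPM (labelled mutant). Most of that sum was Myl4, at 1232 to 1441 (WT) against 1259 to 1372 CPM (labelled mutant). Of these markers 1 passed, the potassium channel gene Kcnj3, named after its values were seen (log2 fold change -0.46, edgeR adjusted p = 0.0261). Over all tested genes 0.214% were called lower. An unadjusted p below 0.05 was reached by 3 of the 7, against 10.5% of all tested genes. Whether more or less atrial tissue has a part in these differences was not tested.

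**Figure D4:**
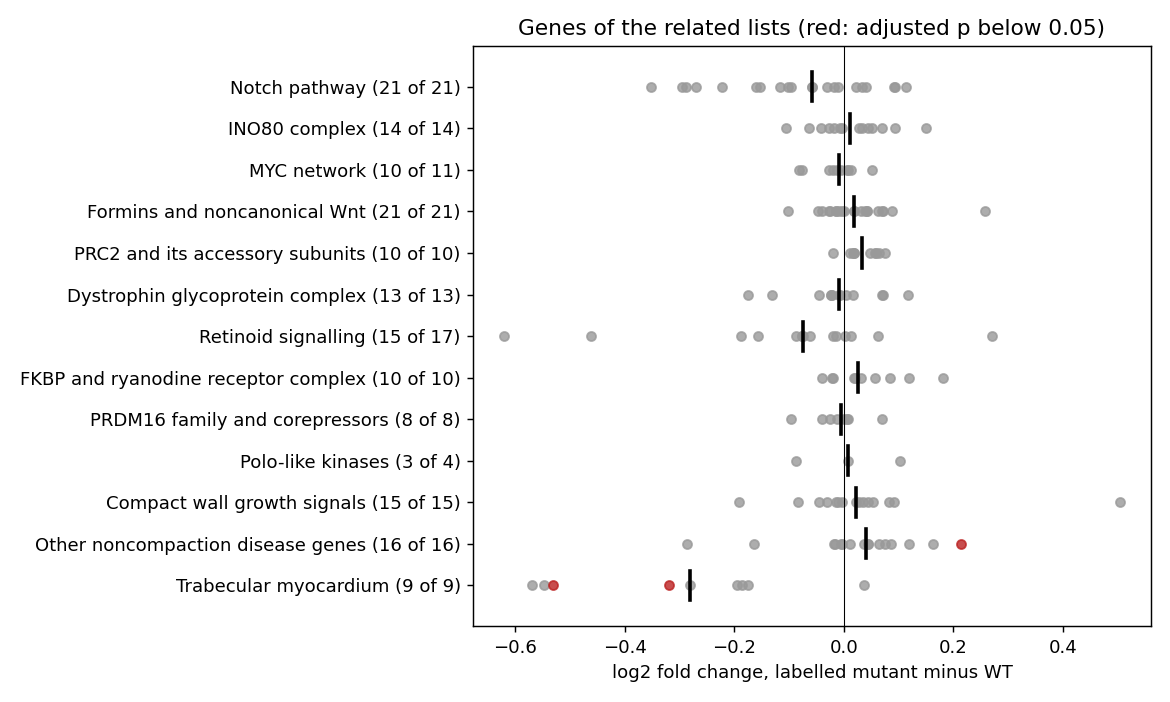
Log2 fold change, labelled mutant minus WT, of each tested gene in the 13 lists around the regulators, which are themselves left out. Points are genes, black bars are list medians, and the labels give tested of listed genes. Red points are the 3 genes past an adjusted p of 0.05, and most medians lie near 0 while that of the trabecular list is at -0.28.

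Over the 13 lists, 162 of 166 genes were tested, and 1 was higher and 2 were lower past the threshold, against 0.526% of all tested genes. Some genes, such as Hey2, Tbx20 and Ryr2, stand in more than 1 list and were counted once here. Of the remaining cell type markers, 8 of 10 fibroblast markers and 6 of 8 mural and smooth muscle markers were below 0 (medians -0.10 and -0.13), and 8 of 8 epicardial and 8 of 9 erythroid markers were above 0 (medians 0.11 and 0.13), with 0 of each past the threshold. An unadjusted p below 0.05 was reached by 3 fibroblast, 4 mural, 2 epicardial and 1 erythroid markers, against 10.5% of all tested genes. The groups did not overlap for 1 of 8 mural and 1 of 8 epicardial markers, against 6.05% of all tested genes. Summed fibroblast markers were at 5686 to 6699 (WT) against 5463 to 6612 CPM (labelled mutant), and mural markers at 1870 to 1966 CPM and at 1944 to 2038 CPM. Most of the mural sum was Acta2, at 1257 to 1361 (WT) against 1349 to 1472 CPM (labelled mutant). The summed erythroid level was 4303 to 9405 (WT) against 5887 to 10028 CPM (labelled mutant). Summed epicardial markers were at 174 to 186 (WT) against 183 to 208 CPM (labelled mutant). Of 9 macrophage markers, all tested, 0 passed, and their sums were 97.9 to 131 (WT) against 104 to 148 CPM (labelled mutant). As for the rest, 1 of 8 hepatocyte markers and 4 of 8 neural markers were tested. Of 10 cardiomyocyte markers, 1 was called higher, against 0.312% of all tested genes, and this was again Nkx2-5. In that list 5 markers were above 0 and 5 below 0. The part of these cells in the members' values was not tested.

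**Figure D5:**
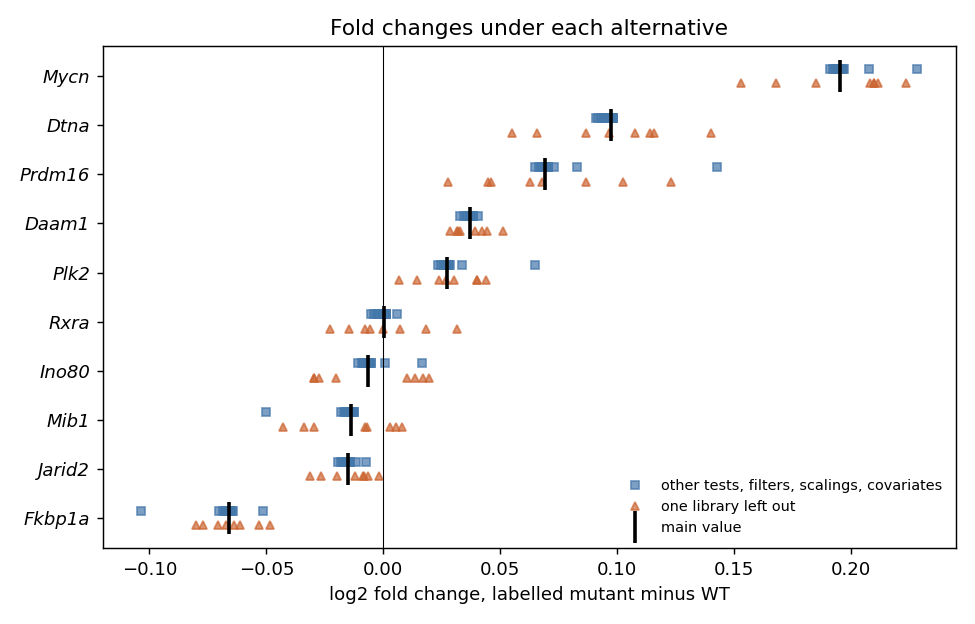
Log2 fold change of each regulator, labelled mutant minus WT, as reported (black bars), under 13 other scalings, filters, tests and covariates (squares), and with each of the 8 libraries left out (triangles). Mycn stays between 0.15 and 0.23, while the values of Rxra, Ino80 and Mib1 lie on both sides of 0.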

How the data were processed

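The authors deposited 1 table of expected counts per Ensembl gene for 8 libraries, made with cutadapt and RSEM 1.3.1 on GRCm38 per the submitters' processing notes. Expected counts are estimates that divide a read matching several genes between them, and 18.1% of the values were not whole (tolerance 0.001). The libraries, from polyadenylated RNA, kept strand and were sequenced as single reads. The aligner and the strand setting of the counting are not given in the sources used here. Counts were rounded, filtered with filterByExpr and given TMM scaling. The comparison used edgeR 4.0.16 (glmQLFit and glmQLFTest, two-sided, R 4.3.3) with group as the only term and Benjamini-Hochberg adjustment over 15388 genes. Symbols, positions, exonic lengths and GC content came from GENCODE M21 (GRCm38), which matched 53360 of the 53465 identifiers. Intervals are 95% intervals of single genes.

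The members and lists were chosen with earlier results of these data known, so counts and directions over a list are no independent evidence. Named were the members, Nrg1, fixed paralogs and wall markers, genes that overlap a member, and from each list the gene with the smallest p and those past the threshold. The fits were tested on simulated data, in which the changes set were larger than any estimated for a member. Detection of changes as small as the members' was therefore not covered. Alternatives were 3 other scalings (total, upper quartile, RLE), a filter of CPM at least 1 in 4 libraries or none, DESeq2 1.42.0, limma 3.58.1 (voom), the likelihood ratio test, a replicate block, a Y-linked covariate (summed log2 CPM of 4 genes), dropping Xist with the Y-linked, mitochondrial and globin genes, lowess correction for GC content and length (span 0.3), summing of genes that share 0.5 of the shorter one's exons, FDR 0.1, and leaving out each library. Figures were drawn with matplotlib 3.10.9.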

Additional observations from a re-analysis of the deposited data

Results flagged for a closer look

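Of 72 groups of 4 values examined, 2 held a library far from the other 3 of its group by Dixon's test at the 95% level, where chance alone gives about 3.6. For Mycn, WT library 3 stood at 33.2 CPM and the other 3 WT libraries at 37.58 to 37.60 CPM. Max, the partner of N-Myc, stood at 29.1 CPM in the first WT library and at 34.6 to 35.3 CPM in the other 3. These are different libraries, and the cause was not tested.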

How the results depend on the processing

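Over 21 alternatives, 190 of the members' 210 log2 fold changes kept their direction and their side of the threshold, 18 changed sign and 2 passed. The 2 were those of Mycn without a filter on low counts and in the likelihood ratio test, where 1 member was called. Genes called were 81 in all and 3 in the related lists. These counts became 338 and 13 without a filter (154 higher and 184 lower), 242 and 11 in the likelihood ratio test (124 and 118), 198 and 8 in DESeq2 (103 and 95), 190 and 10 at an FDR of 0.1, and 16 and 0 with the Y-linked covariate (12 and 4). The cause was not tested. The total stayed within 1.5 times of 81 under the other scalings, limma voom, the CPM filter, removal or summing of genes and correction for GC content and length. Leaving out 1 library gave 11 to 142 genes in all and 0 to 7 in the related lists, where labelled-mutant library 3 left out gave the lowest total and labelled-mutant library 4 left out the highest. The related lists had 0 without WT library 2 or labelled-mutant library 3.

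Sign changes were as follows, on the log2 scale. Ino80 was at 0.016 with the Y-linked covariate and at 0.00075 after GC and length correction. Rxra was at -0.0041 with upper quartile scaling, -0.0019 with total scaling, -0.0026 without a filter and -0.0053 with the Y-linked covariate. With that covariate Fkbp1b was at -0.021, Myc at -0.062, Rxrb at -0.021 and Tbx20 at -0.031, and Rxrb was at -0.015 after GC and length correction. Leaving out 1 library gave -0.043 to 0.0081 for Mib1, -0.030 to 0.020 for Ino80, -0.023 to 0.032 for Rxra, -0.0089 to 0.20 for Fkbp1b, -0.037 to 0.038 for Myc, -0.0058 to 0.027 for Rxrb, -0.014 to 0.072 for Daam2 and -0.015 to 0.10 for Tbx20.

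Deviations of libraries with the same number correlated at 0.0998, 0.0474, 0.0447 and 0.121, and those of other pairs at -0.0877 to 0.0195. Each of the 4 numbers correlated best with its own, and every same-number pair was above every other pair. Since not every same-number pair exceeded 0.1, the minimum set for a block, the main fit had no block. This cutoff does not show that libraries of the same number share nothing, and what the numbers stand for was not tested. With the replicate block, 0 members, 6 genes of the related lists and 93 genes in all were called, of which 59 were among the 81. Under the block Bmp10 and Jph2 passed (adjusted p = 0.00468 and 0.0401) and Etv1 did not (0.0577). Precision is limited most for genes of few counts, such as Rxrg and Crabp2, for which 1 alternative, the CPM filter, gave no value.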
